A study of Arabidopsis thaliana with 8 samples.

Results

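The genes described here are the serine carboxypeptidase-like genes of Arabidopsis, named SCPL followed by a number, together with SNG1, SNG2 and BRS1, family members that carry names of their own. A gene was taken when a probe set, the group of short oligonucleotides by which the array reads a transcript, was annotated to that gene alone. This gave 29 genes, with 1 probe set each, of 13356 genes named by a probe set of their own in the whole series. The gene table of the TAIR10.1 assembly lists 51 such genes. Of these, 3 (SCPL36, SCPL37 and SCPL39) lie only on 2 probe sets shared between genes, and 19, among them SNG1, SNG2 and BRS1, are not analysed here. The 29 members lie on all 5 chromosomes, with 6 on chromosome 1, 7 on chromosome 2, 8 on chromosome 3, 3 on chromosome 4 and 5 on chromosome 5.

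The arrays compared whole seedlings, 14 days old and grown in hydroponic MS medium, that either overexpress the rice serine hydroxymethyltransferase OsSHMT3 (OE) or are wild-type (WT). Each genotype was sampled after 24 h of 150 mM NaCl and without NaCl, which gave the groups OE NaCl, OE control, WT NaCl and WT control, with 2 Affymetrix ATH1 arrays in each and 8 in all. The transgene was driven by the pENTCUP2 promoter in the pORE-E2 vector. As the line on the arrays the methods name both OE3 and OE5, which are 2 separate lines in the study. The labels name no line, so whether the OE arrays come from a single line is not known. The transcript of the transgene, a rice sequence, was not checked on these arrays. A legend of the study gives a lower NaCl concentration than the labels and the methods, and the labels name a Trizol extraction where the methods name RNeasy and RNA in triplicate. No source says that the arrays of a group were made from separate cultures. The p-values therefore reflect the variation between these arrays alone, which may be technical.

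Serine carboxypeptidases are hydrolases with a catalytic serine, aspartate and histidine that remove amino acids from the C-terminus of a protein, and plants carry a large family with this fold. Some plant members do not act as proteases. SNG1 and SNG2 transfer the sinapoyl group of sinapoylglucose to malate and to choline, which gives the sinapate esters of leaves and seeds, and BRS1 acts in brassinosteroid signalling. Proteins of this family are mostly vacuolar or secreted. For most of the 29 genes measured here no individual role is stated below, because none is certain. SCPL49 also carries the name of carboxypeptidase Y, the vacuolar carboxypeptidase known from yeast.

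Values are on a log2 scale, as the submitters deposited them, so a difference of 1 is a doubling of the signal. Medians of the arrays over all probe sets lay at 6.10 and 6.32 in OE NaCl, 6.00 and 6.08 in OE control, 6.33 and 6.33 in WT NaCl, and 6.32 and 6.27 in WT control. Replicate arrays differed more in OE than in wild-type, with an SD of the replicate difference over probe sets of 0.551 in OE NaCl and 0.430 in OE control, against 0.116 in WT NaCl and 0.213 in WT control. A gene is called higher or lower at a Benjamini-Hochberg adjusted p under 0.05 in limma, fitted to all 8 arrays and adjusted over all 22746 probe sets tested. Errors of log2 fold changes are limma's standard errors (SE), and n is 2 arrays in each group throughout. Of the marker lists used to check the tissue, green leaf had 1 of 14 genes measured, RCA, with means between 12.65 and 12.73 in the 4 groups and no call, root had 3 of 14, seed and embryo 0 of 16, seed coat 1 of 7, flower and anther 2 of 12 with no call, and senescing leaf 1 of 5. After NaCl the root markers did not move together. PYK10 was called higher after NaCl in OE, by 1.92, and in wild-type, by 1.32, while EXPA7 and EXPA18 were not called (-0.50 and -0.13 in OE, 0.11 and -0.31 in wild-type). In OE minus wild-type all 3 root markers were positive at both conditions. EXPA7 and EXPA18 had mean signals under 5, at 4.86 and 4.55. Of all probe sets with a mean under 5, 69.8% were positive in OE minus wild-type without NaCl and 74.9% under NaCl. Under NaCl PYK10 stood at 1.1 and was called, with EXPA7 at 0.22 and EXPA18 at 0.79. Without NaCl EXPA7 stood at 0.83 and was called, with PYK10 at 0.51 and EXPA18 at 0.60. SAG29, of senescing leaves, was higher after NaCl in OE by 1.37 and stood at -0.03 in wild-type, with an interaction of 1.41, and its OE minus wild-type difference without NaCl was -1.08 (adjusted p = 0.0111). The part of tissue shares in the results was not tested. RNA came from whole seedlings, so fewer cells of a type and less RNA per cell cannot be told apart.

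Mean signals of the members over the 8 arrays ran between 3.48 for SCPL18 and 10.08 for SCPL49. Signals of different probe sets depend on their oligonucleotides and do not rank the transcripts. Of the 29 members, 12 lay above and 17 below the median probe set, 11 had a mean over 7, 5 lay between 5 and 7, and 13 were dim, with a mean under 5. No detection call is among the values used here, so whether a dim member was expressed is not known. The dim members were SCPL16, SCPL18, SCPL21, SCPL22, SCPL23, SCPL28, SCPL30, SCPL32, SCPL38, SCPL40, SCPL41, SCPL44 and SCPL47. The widest replicate spreads among them were in OE: SCPL28 gave 4.90 and 3.38 on the 2 OE NaCl arrays (SD 1.08), and SCPL23 gave 4.66 and 6.17 on the OE control arrays (SD 1.07), while in wild-type these genes had SDs between 0.021 and 0.080. SCPL49, the gene with the highest mean signal, read 10.08 and 10.08 in OE NaCl, 10.01 and 9.88 in OE control, 10.22 and 10.33 in WT NaCl, and 10.08 and 9.91 in WT control, and was called in none of the comparisons.

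**Figure D1:**
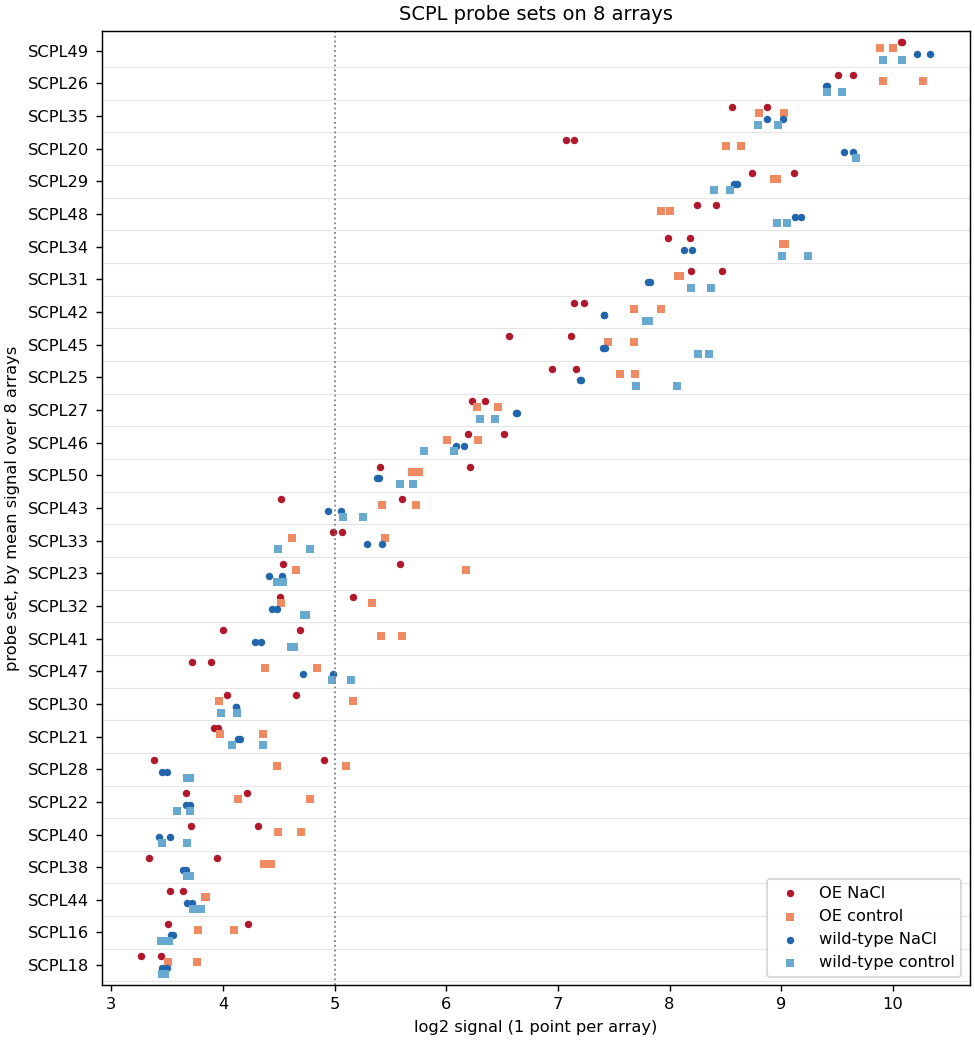
Log2 signal of the 29 SCPL probe sets on each of the 8 arrays, 1 point per array, with genes in order of their mean signal and a dotted line at a mean of 5. SCPL20 is the gene whose groups lie farthest apart, with OE NaCl at 7.07 and 7.14 and WT control at 9.67 on both arrays, and the 2 OE NaCl arrays of SCPL28 lie at 4.90 and 3.38.

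SCPL20 (AT4G12910, chromosome 4) was the member that differed most between the groups. It read 7.07 and 7.14 in OE NaCl, 8.50 and 8.64 in OE control, 9.64 and 9.57 in WT NaCl, and 9.67 and 9.67 in WT control. The OE arrays lay below all wild-type arrays, the OE NaCl arrays lowest and the wild-type arrays with and without NaCl between 9.57 and 9.67. As group means this was 7.11 ± 0.052 in OE NaCl, 8.57 ± 0.096 in OE control, 9.61 ± 0.055 in WT NaCl and 9.67 ± 0.005 in WT control (SD, n = 2 each). SCPL20 was 2.76-fold lower in OE NaCl than in OE control, or -1.47 as a log2 fold change (SE 0.127, adjusted p = 0.00119). WT NaCl minus WT control was -0.07 (SE 0.127, adjusted p = 0.933). Set against wild-type, SCPL20 in OE was 5.65-fold lower under NaCl, at -2.50 (adjusted p = 6.7e-05), and 2.14-fold lower without NaCl, at -1.1 (adjusted p = 0.00356).

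Whether the genotypes responded unequally was tested with the interaction, the response to NaCl in OE less that in wild-type. For SCPL20 it was -1.40 (SE 0.179, adjusted p = 0.0129), and it was the only member called in this test. Over all probe sets 0.422% were called lower and 1.23% higher in the interaction, and 1 and 0 of the 29 members were. The interaction kept its direction in every fit, but lost its call without any 1 of the 4 wild-type arrays, with an adjusted p of 0.143 and 0.122 without WT NaCl replicate 1 and 2 and of 0.0959 and 0.0984 without WT control replicate 1 and 2. Both differences between the genotypes remained called in all fits with an array left out (adjusted p at most 0.00282 under NaCl and 0.0470 without it). The fall in OE also kept its call in those fits, with an adjusted p of at most 0.00836, and lost it when only the 4 OE arrays entered the fit (adjusted p = 0.0580).

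A marker and a gene of the protease list changed beside SCPL20. BAN, the anthocyanidin reductase of seed coat tannin synthesis and the only 1 of 7 seed coat markers to which a probe set is annotated alone here, read 4.56 and 4.25 in OE NaCl, 7.13 and 7.27 in OE control, 8.68 and 8.59 in WT NaCl, and 8.72 and 8.46 in WT control. Its interaction was -2.83 (adjusted p = 0.00176). DELTA-VPE, a vacuolar processing enzyme known from the seed coat and picked from the protease list after its values were seen, read 9.44 and 9.20 in OE NaCl, 10.62 and 10.54 in OE control, 11.35 and 11.42 in WT NaCl, and 11.48 and 11.33 in WT control, with an interaction of -1.24 (adjusted p = 0.0351). Both were lowest in OE NaCl, intermediate in OE control and highest in wild-type, where NaCl made a difference of 0.04 for BAN and -0.02 for DELTA-VPE. Other processing enzymes of the protease list did not share this order. Their interactions were 1.46 for ALPHA-VPE, 1.14 for BETA-VPE and -0.06 for GAMMA-VPE, and none was called (limma adjusted p = 0.114, 0.173 and 0.928). The part of BAN and DELTA-VPE in the result for SCPL20 was not tested.

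**Figure D2:**
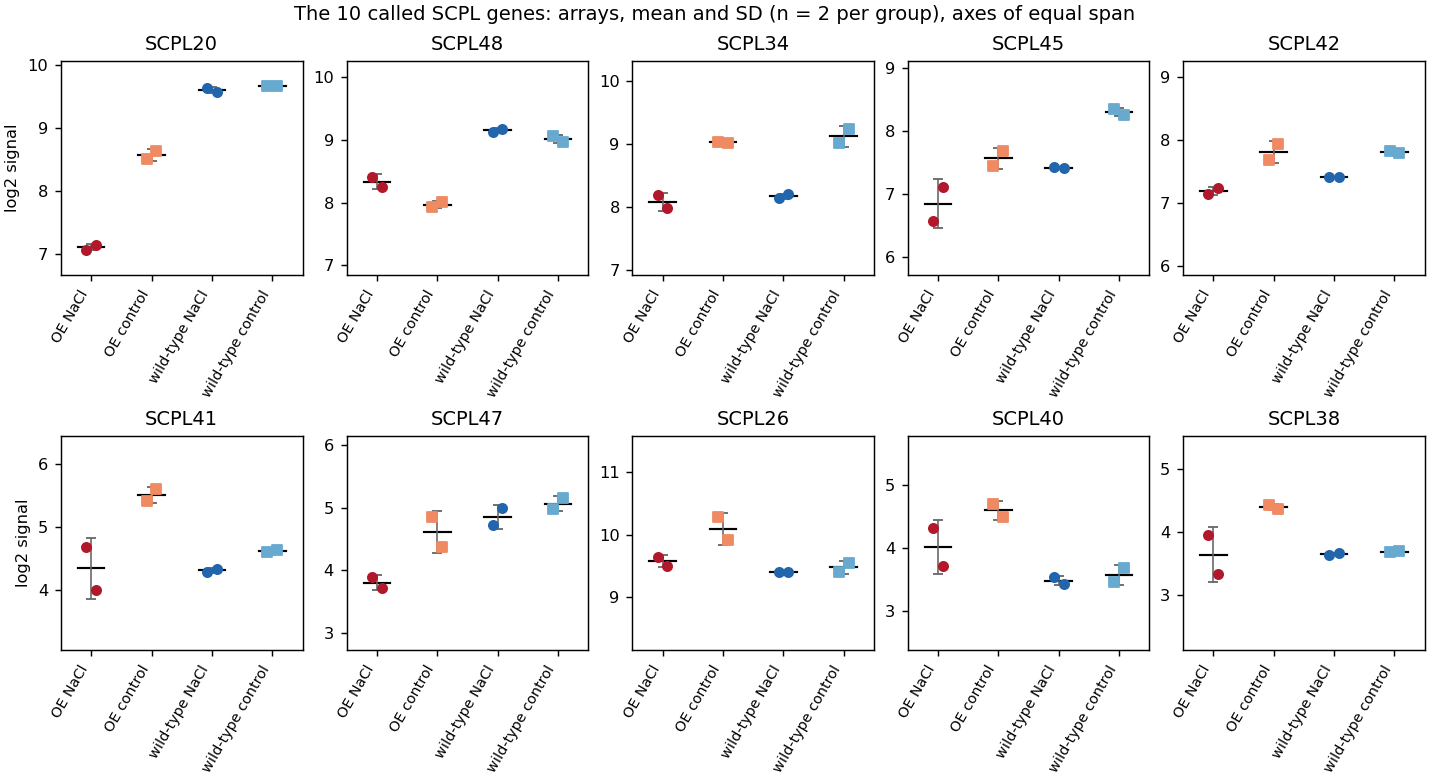
Log2 signal of the 10 SCPL genes called in at least 1 comparison, in 1 panel per gene: points are arrays, horizontal lines group means and bars the SD (n = 2 per group), and all vertical axes span the same log2 range. SCPL20 falls to 7.11 in OE NaCl, SCPL48 is lower in both OE groups, and SCPL34 is lower in both NaCl groups.

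Every member called after NaCl was called lower. In OE, 4 of 29 members fell (SCPL20, SCPL34, SCPL41 and SCPL42) and none rose, against 2.33% of all probe sets called lower and 4.88% called higher. In wild-type, 2 of 29 fell (SCPL34 and SCPL45) and none rose, against 2.56% of all probe sets lower and 3.26% higher. The median log2 fold change of the members was -0.28 in OE, where the median over all probe sets was 0.01, and -0.07 in wild-type, where it was -0.05. Signs were negative for 24 of 29 members in OE and for 18 of 29 in wild-type. They were positive for 5 members in OE, where 51.1% of all probe sets were positive. In wild-type they were positive for 11 members, where 41.8% of all probe sets were. The median in OE stayed negative under 3 other scalings, between -0.45 and -0.27, while that in wild-type was 0.00 with quantile normalization. A member was called higher in some other fits: SCPL33 in wild-type, as given with its values, and SCPL50 in OE without OE NaCl replicate 1 (0.48, adjusted p = 0.0408). Each response has its own control arrays. The fit of all 8 arrays shares a spread per probe set between the groups, although replicates differed more in OE than in wild-type. In fits of only the arrays compared, 0 of 29 members were called in OE and 7 in wild-type. These counts of calls therefore do not rank the genotypes by response. The shares of all probe sets called in such fits are not given here, so the counts do not set the members apart from other genes.

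SCPL34 (AT5G23210, chromosome 5) was the only member called lower after NaCl in both genotypes. It read 8.18 and 7.98 in OE NaCl against 9.03 and 9.01 in OE control, which is -0.94 as a log2 fold change (SE 0.145, adjusted p = 0.0118). In wild-type it read 8.13 and 8.2 in NaCl against 9.01 and 9.24 in control, which is -0.96 (SE 0.145, adjusted p = 0.0116). NaCl and control arrays did not overlap in either genotype, and the interaction was 0.02 (SE 0.205, adjusted p = 0.983). OE and wild-type differed by -0.08 under NaCl (adjusted p = 0.744) and by -0.10 without it (adjusted p = 0.623). The call in OE was lost at an adjusted p of 0.0505 without either WT NaCl array and 0.0518 without OE control replicate 1, at 0.176 in a fit of the OE arrays alone and at 0.0997 with array weights. The call in wild-type was lost without any 1 of the wild-type arrays, at 0.158 and 0.135 without WT NaCl replicate 1 and 2 and at 0.0591 and 0.110 without WT control replicate 1 and 2.

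SCPL45 (AT1G28110, chromosome 1) was lower after NaCl in wild-type and lower in OE than in wild-type without NaCl. It read 6.56 and 7.11 in OE NaCl, 7.45 and 7.68 in OE control, 7.42 and 7.41 in WT NaCl, and 8.35 and 8.26 in WT control. The WT control arrays lay above all others. Its log2 fold change after NaCl was -0.89 in wild-type (SE 0.199, adjusted p = 0.0484) and -0.73 in OE (adjusted p = 0.0785), and the interaction was 0.17 (adjusted p = 0.853). The difference in OE was called with quantile normalization, cyclic loess normalization or median centring (adjusted p between 0.0133 and 0.0184), with the filter at the median signal (0.0421) and without OE NaCl replicate 2 (0.0166). OE minus wild-type was -0.74 without NaCl (adjusted p = 0.0423) and -0.58 under NaCl (adjusted p = 0.137). Both calls stood near the limit. They were lost without any 1 of the OE control, WT NaCl and WT control arrays, at adjusted p-values up to 0.322 for the NaCl response (without WT NaCl replicate 2) and up to 0.211 for the genotype difference (without WT control replicate 1). The genotype difference was also lost with median centring (0.0600) and cyclic loess normalization (0.0509), and the NaCl response with the replicate number as a block (0.0623).

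SCPL41 and SCPL42 (AT5G42230 and AT5G42240) lie near each other on chromosome 5 with 2 other protein-coding genes between them, and both fell after NaCl in OE. SCPL42 read 7.14 and 7.24 in OE NaCl, 7.69 and 7.93 in OE control, 7.41 and 7.41 in WT NaCl, and 7.82 and 7.79 in WT control. SCPL41, a dim probe set, read 4.69 and 4.0 in OE NaCl, 5.42 and 5.60 in OE control, 4.29 and 4.34 in WT NaCl, and 4.61 and 4.64 in WT control. The NaCl arrays lay below the control arrays of the same genotype for both genes. For SCPL41 the OE control arrays also stood above all others, whereas OE control and WT control overlapped for SCPL42. Log2 fold changes after NaCl in OE were -1.16 for SCPL41 (SE 0.225, adjusted p = 0.0268) and -0.62 for SCPL42 (SE 0.137, adjusted p = 0.0424). Those in wild-type were -0.31 (adjusted p = 0.625) and -0.39 (adjusted p = 0.179), and neither interaction was called (-0.85, adjusted p = 0.328, for SCPL41, and -0.22, adjusted p = 0.692, for SCPL42). In OE the call of SCPL41 was lost without any 1 of the OE control, WT NaCl and WT control arrays (adjusted p between 0.0747 and 0.0809). SCPL42 kept its call only without OE NaCl replicate 1, and its adjusted p was up to 0.136 without any 1 of the other 7 arrays, highest without either WT NaCl array. Neither was called in a fit of the OE arrays alone (0.225 for SCPL41 and 0.360 for SCPL42) or with array weights (0.0552 and 0.237), and with the replicate number as a block SCPL42 lost its call (0.0703).

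Other members came near a call after NaCl or had opposite signs in the genotypes. SCPL25 read 6.95 and 7.16 in OE NaCl against 7.69 and 7.56 in OE control, and 7.21 and 7.2 in WT NaCl against 7.70 and 8.06 in WT control. Its log2 fold changes of -0.57 in OE (adjusted p = 0.0934) and -0.68 in wild-type (adjusted p = 0.0677) missed the limit, although NaCl and control arrays did not overlap. In OE it was called with quantile normalization, cyclic loess normalization, median centring or the filter at the median signal (adjusted p between 0.0456 and 0.0496). In wild-type it was called in a fit of the wild-type arrays alone (0.00868), with array weights (0.00133), with that filter (0.0288) and without either OE NaCl array (0.0394). SCPL31 stood at 0.24 after NaCl in OE (log2 fold change, adjusted p = 0.358) and at -0.47 in wild-type (adjusted p = 0.138, but 0.0114 in a fit of the wild-type arrays alone and 0.00381 with array weights). The arrays did not overlap in either genotype, and the interaction of 0.71 (SE 0.208, adjusted p = 0.206) was called only without OE NaCl replicate 1 (0.0362). SCPL33 read 5.29 and 5.42 in WT NaCl against 4.49 and 4.78 in WT control, the highest positive log2 fold change of a member after NaCl in wild-type at 0.72, and was not called (adjusted p = 0.207). It was called in a fit of the wild-type arrays alone (0.00469), with array weights (0.00356) and without either OE control array (0.0480). The value in OE was -0.01, with control arrays as far apart as 4.62 and 5.45.

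**Figure D3:**
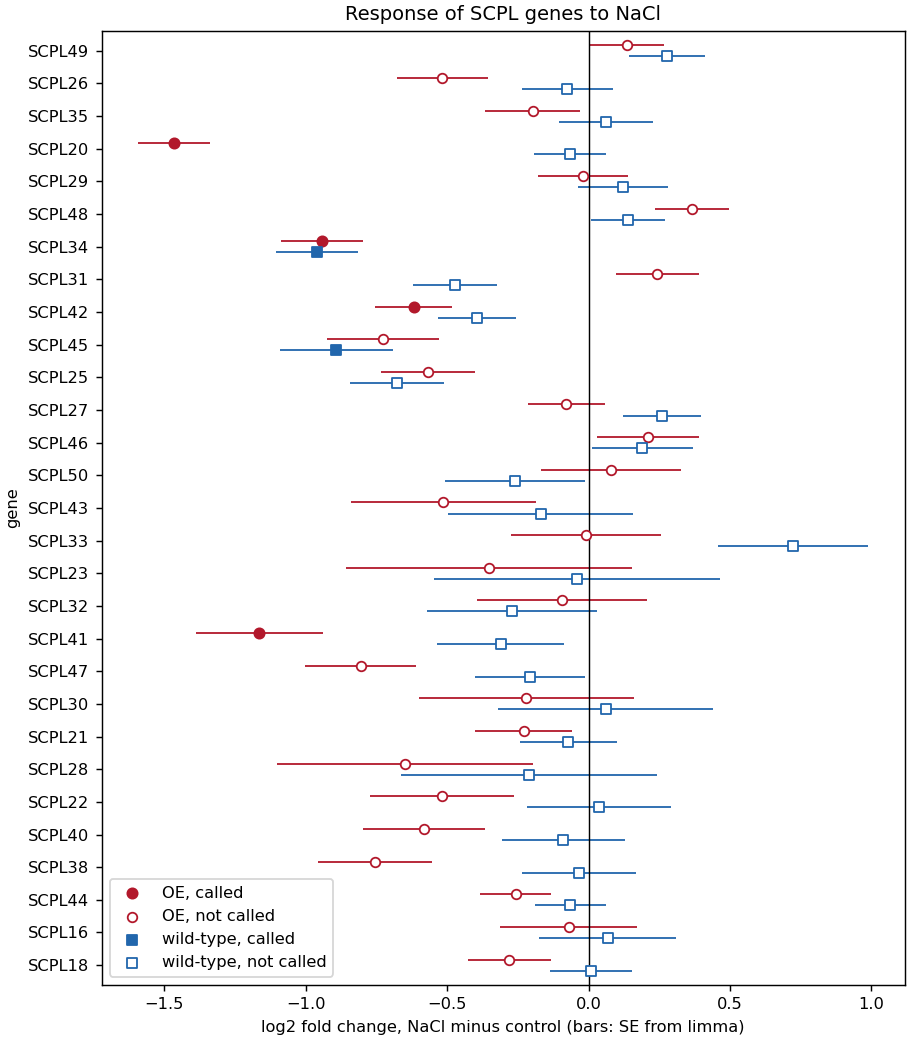
Log2 fold change after NaCl (NaCl minus control) of the 29 SCPL genes for each genotype, in the order of mean signal, with bars of 1 SE from limma and filled symbols for an adjusted p under 0.05. Filled symbols all lie left of 0: SCPL20, SCPL34, SCPL41 and SCPL42 in OE, and SCPL34 and SCPL45 in wild-type.

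Between the genotypes without NaCl, 4 of 29 members were higher in OE (SCPL26, SCPL38, SCPL40 and SCPL41) and 3 were lower (SCPL20, SCPL45 and SCPL48). Over all probe sets 8.10% were called higher and 12.0% lower. The median log2 fold change of the members was 0.17, against -0.02 over all probe sets. After centring each array on its median, which moved the median over all probe sets to 0.24, 6 members were higher and 2 lower. With quantile normalization 3 were higher and 3 lower. The shares of all probe sets called after a rescaling are not given here. Under NaCl 3 of 29 members were lower in OE (SCPL20, SCPL47 and SCPL48) and none was higher, against 4.92% of all probe sets lower and 4.12% higher, with medians of -0.01 for the members and 0.04 for all probe sets. With median centring 1 member was higher and 2 lower under NaCl, with members' and overall medians of 0.10 and 0.16, and with quantile or cyclic loess normalization 1 was higher and 3 lower. SCPL31 was the member called higher in these 3 fits (adjusted p between 0.0262 and 0.0286), as with the filter at the median signal (0.0410) and without OE NaCl replicate 1 (0.0379), against 0.0814 in the values as deposited. These comparisons share no array.

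SCPL48 (AT3G45010, chromosome 3) was lower in OE at both conditions. It read 8.41 and 8.25 in OE NaCl, 7.93 and 8.01 in OE control, 9.13 and 9.18 in WT NaCl, and 9.05 and 8.97 in WT control. All 4 OE arrays lay below all 4 wild-type arrays. Group means were 8.33 ± 0.116 and 7.97 ± 0.055 in OE NaCl and OE control, and 9.15 ± 0.035 and 9.01 ± 0.063 in WT NaCl and WT control (SD, n = 2 each). OE minus wild-type was -1.04 without NaCl (SE 0.130, adjusted p = 0.00456) and -0.82 under NaCl (SE 0.130, adjusted p = 0.0101). Its NaCl response was not called in OE (0.36, adjusted p = 0.147) or in wild-type (0.14, adjusted p = 0.753), and neither was its interaction (0.22, adjusted p = 0.676). The difference without NaCl lost its call without WT control replicate 1 (adjusted p = 0.0583). Under NaCl it did so without WT NaCl replicate 1 (0.120) or 2 (0.141), and at 0.0567 in a fit of the 4 NaCl arrays alone.

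SCPL47, a dim probe set on chromosome 5 (AT5G22980), was lower in OE under NaCl. It read 3.89 and 3.72 in OE NaCl, 4.85 and 4.38 in OE control, 4.72 and 4.99 in WT NaCl, and 4.97 and 5.14 in WT control. The OE NaCl arrays lay below all others. OE minus wild-type was -1.05 under NaCl (SE 0.196, adjusted p = 0.0195) and -0.45 without it (adjusted p = 0.137). NaCl minus control was -0.81 in OE (adjusted p = 0.0560, or 0.0354 without OE NaCl replicate 1 and 0.0312 without OE control replicate 2) and -0.21 in wild-type (adjusted p = 0.761), and the interaction was -0.60 (adjusted p = 0.432). The call was lost without any 1 of the wild-type arrays, at 0.0949 and 0.189 without WT NaCl replicate 1 and 2 and at 0.0517 without either WT control array, with median centring at 0.0530, with array weights at 0.0569 and in a fit of the 4 NaCl arrays alone at 0.0535.

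SCPL26 (AT2G35780, chromosome 2) was the 1 member with a mean signal over 5 that was called higher in OE. It read 9.65 and 9.51 in OE NaCl, 10.27 and 9.91 in OE control, 9.41 and 9.40 in WT NaCl, and 9.41 and 9.55 in WT control. The OE arrays lay above the wild-type arrays at both conditions. OE minus wild-type was 0.62 without NaCl (SE 0.161, adjusted p = 0.0388) and 0.17 under NaCl (adjusted p = 0.525). The call was lost without OE control replicate 1 (0.120), without either WT NaCl array (0.0954) and without WT control replicate 1 (0.210) or 2 (0.127), as well as in a fit of the 4 control arrays alone (0.0585) and with the replicate number as a block (0.0527). SCPL28, its neighbour on chromosome 2 with no protein-coding gene between them, read 4.48 and 5.11 in OE control against 3.67 and 3.70 in WT control, and its log2 fold change of 1.1 was the largest positive one among the members without being called (SE 0.452, adjusted p = 0.118). SCPL28 was called in a fit of the 4 control arrays alone (0.0246), with array weights (0.0210) and without either OE NaCl array (0.00859).

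The other members called higher in OE without NaCl were dim. SCPL40 read 4.31 and 3.71 in OE NaCl, 4.70 and 4.49 in OE control, 3.53 and 3.43 in WT NaCl, and 3.46 and 3.68 in WT control, with OE minus wild-type at 1.03 without NaCl (SE 0.216, adjusted p = 0.0222). SCPL38 read 3.95 and 3.33 in OE NaCl, 4.43 and 4.36 in OE control, 3.64 and 3.67 in WT NaCl, and 3.68 and 3.70 in WT control, with a difference of 0.71 (SE 0.202, adjusted p = 0.0491). For SCPL41, whose arrays are given above, it was 0.88 (SE 0.225, adjusted p = 0.0362). In each of the 3 genes the OE control arrays lay above all other arrays. Under NaCl the differences were 0.53 for SCPL40 (adjusted p = 0.194), -0.01 for SCPL38 (adjusted p = 0.970) and 0.03 for SCPL41 (adjusted p = 0.943). Calls without NaCl were lost for SCPL40 without any 1 of the wild-type arrays or OE control replicate 1 (adjusted p up to 0.159), and for SCPL38 and SCPL41 without any 1 of the OE control and wild-type arrays (up to 0.215 and 0.187), each time highest without WT control replicate 1.

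Dim probe sets as a whole read higher in OE, and this stands beside those calls. Of 7833 probe sets with a mean under 5, 69.8% had a positive OE minus wild-type difference without NaCl, with a median of 0.21, and 9.24% were called higher. Among the 13 dim members 11 were positive, with a median of 0.51, and 3 were called higher. For the 16 brighter members the median was 0.00, with 8 positive, against -0.17 for all probe sets of that range, of which 37.6% were positive. After NaCl in OE none of the 13 dim members had a positive log2 fold change, against 34.1% of all dim probe sets. Their median of -0.35 compares with -0.12 for all dim probe sets. The 2 OE NaCl arrays also differed with brightness: replicate 1 minus replicate 2 had a median of 0.21 over dim probe sets and of 0.61 over the dim members. Of the dim members 11 of 13 were higher on replicate 1, against 69.2% of all dim probe sets. The part of this shift in the results for the dim members was not tested. With quantile or cyclic loess normalization the call of SCPL38 without NaCl was lost (adjusted p = 0.0816 and 0.0774), while SCPL40 and SCPL41 stayed called (adjusted p between 0.0145 and 0.0289). With the replicate number as a block SCPL38 lost it too (0.0563).

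**Figure D4:**
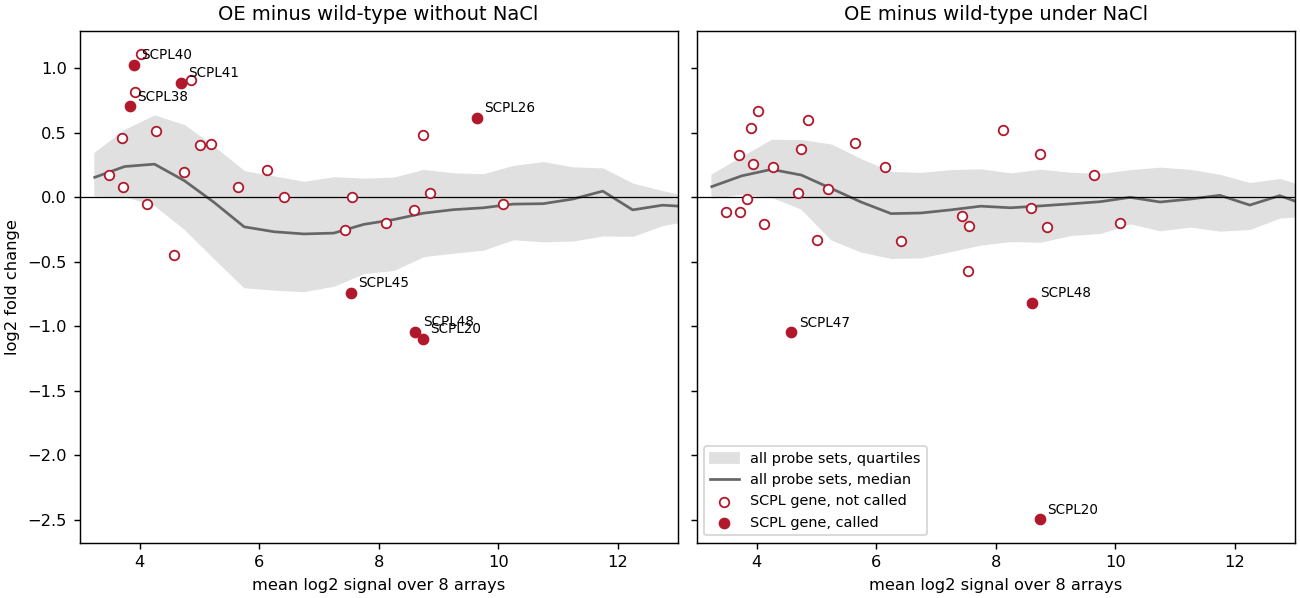
OE minus wild-type log2 fold change of the 29 SCPL genes against their mean log2 signal over 8 arrays, without NaCl on the left and under NaCl on the right, with filled points at an adjusted p under 0.05 and the median and quartiles of all probe sets behind them. Without NaCl the median of all probe sets lies above 0 at signals under 5, where the called genes SCPL38, SCPL40 and SCPL41 stand at 0.71, 1.03 and 0.88, and SCPL20 stands at -1.1 without NaCl and at -2.50 under NaCl.

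At the limit that the methods name, P under 0.05 with a log2 fold change over 2, taken here in size and with P not adjusted, SCPL20 under NaCl in OE minus wild-type was the single member that passed in any comparison. That was 1 of 29 members where 1.38% of all probe sets passed. The counts in the other comparisons were 0 of 29, where 0.752% of probe sets passed after NaCl in OE, 0.651% after NaCl in wild-type, 1.25% between genotypes without NaCl and 0.870% in the interaction. At an unadjusted P under 0.05 with no fold limit, 11 of 29 members passed after NaCl in OE, where 23.9% of all probe sets did, and 6 after NaCl in wild-type, where 17.3% did. Between the genotypes 10 passed without NaCl, against 39.1% of probe sets, and 7 under NaCl, against 23.7%, and the interaction had 4, against 12.8%.

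The 19 members called in no comparison had log2 fold changes between -0.65 (SCPL28) and 0.24 (SCPL31) after NaCl in OE and between -0.68 (SCPL25) and 0.72 (SCPL33) after NaCl in wild-type. Between the genotypes they ran between -0.34 (SCPL27) and 0.67 (SCPL28) under NaCl and between -0.26 (SCPL25) and 1.1 (SCPL28) without it. Among them the lowest adjusted p was 0.0617, for SCPL22 in OE minus wild-type without NaCl (log2 fold change 0.81). It was called with array weights (0.0195), an intensity trend (0.0471), median centring (0.0440) and without either OE NaCl array (0.0261) or OE control replicate 2 (0.0326). SCPL22 and SCPL23 are direct neighbours on chromosome 2. SCPL22 read 4.21 and 3.67 in OE NaCl, 4.78 and 4.14 in OE control, 3.66 and 3.70 in WT NaCl, and 3.59 and 3.70 in WT control. SCPL23 read 5.59 and 4.54 in OE NaCl, 4.66 and 6.17 in OE control, 4.41 and 4.52 in WT NaCl, and 4.48 and 4.53 in WT control. Both lay higher in OE control than in WT control without overlap, but with OE replicates far apart, and the difference for SCPL23 was 0.91 with an SE of 0.505 (adjusted p = 0.221). SCPL29 (mean 8.74) read 9.12 and 8.74 in OE NaCl and 8.96 and 8.94 in OE control. It read 8.58 and 8.61 in WT NaCl and 8.40 and 8.54 in WT control. All its OE arrays lay above its wild-type arrays. OE minus wild-type was 0.48 without NaCl (limma adjusted p = 0.0715) and 0.34 under NaCl (0.254). Without NaCl it was called with an intensity trend (0.0446), median centring (0.0432) and the filter at the median signal (0.0450). Quantile normalization gave 0.0589. On the probe sets shared between genes, that of SCPL36 and SCPL37 had a mean signal of 4.25 and that of SCPL39 and AT3G56540 one of 3.63, and neither was called in any comparison.

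Pathways in which family members are known to act had few genes with a named probe set of their own here. As 8730 of the 22746 probe sets tested carry no gene name here, other genes of these lists may also be on the array. The sinapate ester and phenylpropanoid list, whose sinapoylglucose feeds the SCPL acyltransferases, had 8 measured genes for its 35 names. UGT84A3, a glucosyltransferase of the group that makes such glucose esters, read 8.84 and 9.06 in OE NaCl, 8.40 and 8.28 in OE control, 8.44 and 8.40 in WT NaCl, and 7.62 and 7.74 in WT control. It was higher after NaCl in OE by 0.61 (adjusted p = 0.0458) and in wild-type by 0.74 (adjusted p = 0.0265), and higher in OE than in wild-type without NaCl by 0.66 (adjusted p = 0.0221). UGT72E2, which glucosylates monolignols, was higher after NaCl in OE by 0.67 (adjusted p = 0.0301), and none of the 8 fell or was called in the interaction. Their median log2 fold change after NaCl was 0.18 in OE and -0.07 in wild-type, against 0.01 and -0.05 over all probe sets. The anthocyanin list had 3 measured genes for its 27 names. DFR, the dihydroflavonol reductase, had a log2 fold change of -1.35 after NaCl in OE (limma adjusted p = 0.0209) and stood at -1.97 in OE minus wild-type under NaCl (adjusted p = 0.00316). For UGT78D2, a flavonoid glucosyltransferase, OE minus wild-type without NaCl was -1.31 (adjusted p = 0.0229).

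Of the brassinosteroid list 1 gene of 29 names, the receptor-like BRL1, had a named probe set of its own and was not called. Among 9 measured genes of 32 names for vacuolar and secreted proteases outside the family, 2 rose and 1 fell after NaCl in OE, and 1 rose and none fell in wild-type. Those that rose in OE were the vacuolar processing enzymes BETA-VPE by 1.48 (adjusted p = 0.0101) and ALPHA-VPE by 1.26 (adjusted p = 0.0255), and DELTA-VPE fell by 1.26 (adjusted p = 0.00339). The gene that rose in wild-type was the subtilase SBT3.3, by 1.44 (adjusted p = 0.00135). Between the genotypes without NaCl all 3 of these processing enzymes were lower in OE, at -1.15 for BETA-VPE (adjusted p = 0.0162), -0.93 for ALPHA-VPE (adjusted p = 0.0371) and -0.82 for DELTA-VPE (adjusted p = 0.0128). Under NaCl 2 of the 9 were lower in OE, DELTA-VPE at -2.06 (adjusted p = 0.000295) and SBT3.3 at -0.73 (adjusted p = 0.0162). Median log2 fold changes of these 9 proteases after NaCl were 0.11 in OE and 0.15 in wild-type, where those of the 29 SCPL genes were -0.28 and -0.07.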

How the data were processed

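There were 8 ATH1 arrays in 4 groups of 2, named from the labels of genotype and stress. The authors scanned the arrays and deposited 1 value on a log2 scale per array and probe set; per the labels Affymetrix Expression Console was used, and its version and summarization method are not given in the sources used here. No further normalization was applied. Of 22810 probe sets, 64 controls were left out and 22746 tested, of which 13513 name 1 gene, 503 several and 8730 none here. Names and neighbours come from the TAIR10.1 gene table.

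The test was that of limma 3.58.1, run in R 4.3.3, with a mean per group over all 8 arrays, 5 comparisons and Benjamini-Hochberg adjustment over all tested probe sets (limit 0.05). The rule for naming genes took all 29 members and gave values on each array for the members called in any comparison. It gave the others by ranges and counts, with the brightest, dimmest and most variable named. SCPL22, SCPL23, SCPL25, SCPL29, SCPL31 and SCPL33 were added after their values were seen. Gene lists served for counts only. Members and lists were chosen with earlier results of these data known. In the anthocyanin list CHI was left out, since that symbol names a chitinase in the table.

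Alternatives were a fit restricted to the arrays of the comparison, a trend of the prior variance with intensity (eBayes), quantile normalization, median centring, a filter at the median signal, array weights, omission of each array in turn, the replicate number as a block, the mean of the probe sets of a gene, the limit of the methods, and cyclic loess normalization, which was chosen after the data were seen. The procedure was tested on simulated data in which all groups had the same spread per probe set. The OE and wild-type arrays differ in spread, so the simulation does not cover that case. Depth is not defined for arrays, and their number limits the precision.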

Additional observations from a re-analysis of the deposited data

Results flagged for a closer look

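SCPL20 was singled out because its response to NaCl differed between the genotypes in a test of that difference. Its NaCl response in OE minus that in wild-type was -1.40 on the log2 scale (SE 0.179, limma adjusted p = 0.0129), with a response of -1.47 in OE and -0.07 in wild-type (n = 2 arrays per group). Both OE NaCl arrays lay below both OE control arrays. The call was lost without any 1 of the 4 wild-type arrays, with the highest adjusted p, 0.143, without WT NaCl replicate 1.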

How the results depend on the processing

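No difference called in a member changed direction under any alternative that gave it a value: of 283 values for the 17 called differences, 198 kept the call and 85 lost it. A difference between 2 groups could move only under a rescaling or without an array of those groups. The other alternatives left its size as it was and bear on the call alone, so they could not change its direction. In fits of only the arrays compared, the counts of members called were 0 of 29 after NaCl in OE (4 in the values reported), 7 after NaCl in wild-type (2) and 1 between genotypes under NaCl (3), and the interaction has no such fit. Array weights gave 1 after NaCl in OE and 7 after NaCl in wild-type. For the alternative fits the share of all probe sets called is not given here, so their counts of members have no background beside them. The methods' limit gave 0 after NaCl in OE, 0 in wild-type, 0 between genotypes without NaCl, 1 under NaCl and 0 in the interaction. Leaving out 1 array at a time gave 1 to 10 members after NaCl in OE, 0 to 3 in wild-type, 1 to 11 between genotypes without NaCl (7 reported), 1 to 9 under NaCl and 0 to 5 in the interaction (1 reported), and the cause of these changes was not tested. In the labels same-numbered arrays share only the number. The correlations of their replicate differences between groups ran between -0.20 and 0.18, and whether such arrays share a batch cannot be told from these values. With the replicate number as a block the counts were 3 after NaCl in OE, 1 in wild-type, 5 and 3 between genotypes without and under NaCl, and 1 in the interaction. The block ended the calls of SCPL42 after NaCl in OE (adjusted p = 0.0703), SCPL45 after NaCl in wild-type (0.0623), and SCPL26 (0.0527) and SCPL38 (0.0563) between genotypes without NaCl.

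Reversals occurred among differences that were not called. SCPL50 after NaCl in OE (0.08) was -0.11 with quantile normalization, -0.027 with cyclic loess normalization and -0.093 with median centring, and between -0.33 and 0.48 with an array left out. With an array left out SCPL28 and SCPL43 after NaCl in OE ran between -1.41 and 0.11 and between -1.06 and 0.030. Under NaCl OE minus wild-type ran between -0.038 and 0.68 for SCPL16, -0.095 and 1.43 for SCPL28, and -0.48 and 0.61 for SCPL43. Without NaCl it ran between -0.015 and 0.82 for SCPL33, and the interaction of SCPL50 between -0.065 and 0.74. Dim members, 13 of 29, carry no detection call here. The filter at the median leaves out members below it, which have no value there, and no member has more than 1 probe set, so the mean of probe sets changed only the adjustment.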
